A study of Rattus norvegicus with 12 samples.

Results

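In the renal cortex of Zucker rats, 88 genes stood apart in untreated obese animals and lay back toward, at or past the lean level in obese animals given an SGLT2 inhibitor. Of these, 55 genes were higher in the obese rats and 33 were lower. The higher genes included type I collagen, laminin chains, actin cross-linkers, the PDGF receptor Pdgfrb, the ligand Tgfb2 and cyclin D1. The lower genes included 4 glutathione S-transferases and enzymes of amino acid, one-carbon, fatty acid and xenobiotic metabolism. The members were selected on the measured values themselves. A member had a mean of 5 or more over the 12 rats, its 4 ZF values all lay above, or all below, the 8 values of the other 2 groups, and its ZF mean was at least 25% above both other means or, for the lower genes, both other means were at least 25% above the ZF mean. The table held 13151 genes, of which 9851 reached that mean. Since both contrasts with the ZF group were used for the choice, their values are given below as a description, with no test.

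The values are CPM, that is, reads scaled to a common total per rat and corrected with the TMM factors of edgeR. They are not divided by gene length, so levels are compared between rats and not between genes. The 12 samples were male rats aged 32 weeks in 3 groups of 4 separate animals. Zucker lean (ZL) rats were the lean controls. Zucker fatty (ZF) rats, which have no functional leptin receptor, became obese, and the series' own text calls them leptin-deficient. The ZF-SGLT2i group were Zucker fatty rats of the same genotype that received canagliflozin in their food at 10 mg/kg/day from 24 weeks of age for 8 weeks. In the paper's methods, lean rats appear only in a time-course study with repeated kidney biopsies. The treated rats belonged to a separately purchased cohort of Zucker fatty rats. By that account, ZF-SGLT2i against ZL compares rats of different studies as well as of different genotype and treatment. For the sequenced ZF rats the paper's results text names no cohort. Its figure caption calls them ZF-NT, the name of the untreated rats of the purchased cohort. If they came from it, ZF against ZL also differs by study and by biopsy, which cannot be told apart from genotype here. Between 8824980 and 12210257 reads per rat lay on genes. The smallest number of reads behind any value of a member was 17 in the higher and 18 in the lower group, so counting error is wide for the genes of low level.

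The renal cortex is made mostly of proximal tubules, which reabsorb glucose through SGLT2 (Slc5a2) and carry much of the kidney's amino acid, fatty acid and drug metabolism, with glomeruli, vessels and a thin interstitium between them. Matrix proteins in the kidney come largely from interstitial fibroblasts, pericytes and mesangial cells, and PDGF and TGF-beta are ligands known to drive these cells to proliferate and to deposit collagen. Glutathione S-transferases, flavin monooxygenases, carboxylesterases and cytochrome P450 enzymes modify foreign and endogenous compounds. The tissue was bulk cortex, in which fewer cells of a type and less RNA per cell cannot be told apart.

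As a check of the labelled tissue, all 15 proximal tubule markers were present and summed to between 22732 and 33783 CPM, while the 4 measured adrenal markers summed to at most 2.79 CPM. Slc5a2, the target of the drug, was at 365, 496, 549.9 and 292 CPM in the ZL rats, 370.2, 504, 519.7 and 446 in the ZF rats and 418, 359, 424 and 403 in the ZF-SGLT2i rats. Its groups overlapped, and ZF-SGLT2i and ZL rats did not differ past the threshold (log2 fold change −0.05 ± 0.17 (SE), limma adjusted p = 0.867). Lepr, whose mutation in this strain changes the protein, was at 12.0, 8.93, 5.78 and 9.56 CPM in the ZL rats, 10.9, 8.72, 11.2 and 8.85 in the ZF rats and 6.76, 5.45, 7.24 and 6.13 in the ZF-SGLT2i rats, so its level is no check of the genotype.

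Few genes met the rule. The 55 higher members were 0.558% and the 33 lower members 0.335% of the 9851 genes. Applied to the ZL rats, the same rule found 428 genes higher (4.34%) and 340 lower (3.45%) than in both other groups. Applied to the ZF-SGLT2i rats, it found 144 higher (1.46%) and 137 lower (1.39%). The number with a group standing apart was thus smallest when that group was ZF, and the 3 counts share the same 12 rats. Without the fold threshold, 118 genes lay above and 111 below both other groups.

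The counts depended on the scaling and on single rats. Without TMM factors, the ZF values moved up against ZL by 0.11 on the log2 scale for every gene alike, and the rule then gave 100 higher and 18 lower genes, among them all 55 higher members and 18 of the 33 lower ones. Leaving out a rat makes a rule of no overlap easier to meet. Without ZF rat 5 the rule gave 137 higher genes, and it gave 57 lower genes without ZF rat 4 and 54 without ZF rat 2.

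Most shifts were moderate. Among the higher members, the ZF mean was a median of 1.46 times the ZL mean (1.251 to 2.28) and 1.43 times the ZF-SGLT2i mean (1.252 to 2.52). Among the lower members, the ZL mean was a median of 1.66 times the ZF mean (1.26 to 7.18) and the ZF-SGLT2i mean 1.46 times (1.26 to 2.88). Both folds reached 1.5 in 7 higher and 11 lower members, and both reached 2 only in Prima1, Acot12 and Azgp1. The gap between the nearest ZF rat and the nearest of the 8 other rats was a median of 1.05-fold in the higher and 1.11-fold in the lower group, and it was under 5% in 26 and 9 members.

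**Figure D1:**
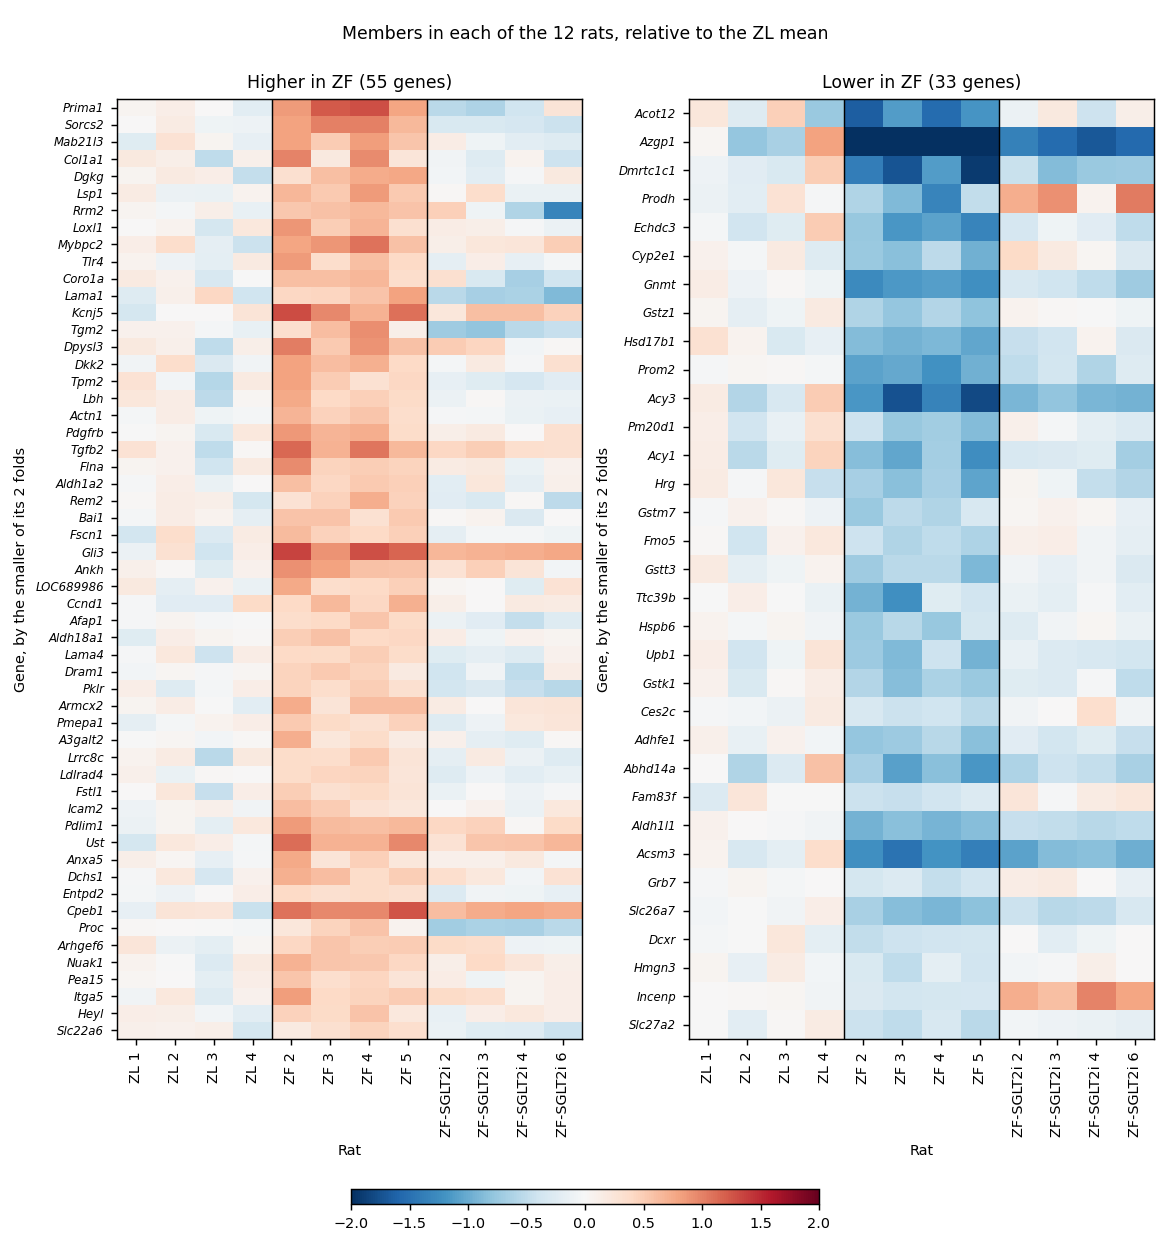
Heat map of the 55 higher (left) and 33 lower members (right), 1 row per gene and 1 column per rat. Colour is log2 of the rat's value over the ZL mean of that gene, red above and blue below, with limits at −2 and 2 that the Azgp1 values of the ZF rats exceed. The 4 ZF columns stand out by the rule, while the ZF-SGLT2i columns are pale for most genes and stay coloured for some, such as Azgp1, Acsm3, Acy3, Incenp, Prodh, Cpeb1 and Gli3.

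The heat map of all members by rat shows that the ZF rats were not alike. ZF rat 5 was the lowest of its group, and so nearest to the other rats, in 26 of the 55 higher members, while ZF rat 2 was the highest in 31. Among the lean rats, ZL rat 3 was the lowest in 27 of them. In the lower group, ZF rats 2 and 4 were each the highest of their group in 12 of 33 members, ZL rat 2 was the lowest lean rat in 17 and ZF-SGLT2i rat 6 the lowest treated rat in 19.

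The higher group held 10 genes of the matrix and of adhesion. Col1a1, which encodes a chain of type I collagen, was at 88.5, 84.4, 54.3 and 83.1 CPM in ZL rats 1 to 4, 155, 88.5, 149.6 and 91.7 in ZF rats 2 to 5, and 73.7, 64.6, 81.7 and 58.4 in ZF-SGLT2i rats 2, 3, 4 and 6. ZF rats 2 and 4 were far above the rest, whereas ZF rats 3 and 5 cleared the highest lean rat by little, and the means were 77.6 ± 15.7 (ZL), 121 ± 35.9 (ZF) and 69.6 ± 10.2 CPM (ZF-SGLT2i) (SD, n = 4 here and below). Lama1, a laminin chain of basement membranes, was at 51.3, 65.3, 81.2 and 46.5 CPM in the ZL rats, 81.3, 82.2, 90.3 and 106 in the ZF rats and 41.9, 38.7, 39.2 and 33.2 in the ZF-SGLT2i rats. ZL rat 3 reached the level of the lowest ZF rat to within 1% while the treated rats lay below every lean rat.

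Tgm2, the tissue transglutaminase that cross-links matrix proteins, was at 269.9, 271, 248 and 228 CPM in the ZL rats, 319.8, 392, 486 and 276 in the ZF rats and 155, 148, 175 and 185 in the ZF-SGLT2i rats. Again all 4 treated rats were below all 4 lean rats. Loxl1, which cross-links elastin, had means of 45.5 ± 7.08 (ZL), 69.5 ± 11.6 (ZF) and 46.6 ± 3.82 CPM (ZF-SGLT2i). The other members of this kind were the laminin chain Lama4 of vessel walls, the secreted glycoprotein Fstl1, the fibronectin receptor subunit Itga5, the endothelial adhesion protein Icam2, the cadherin Dchs1 and Ust, which sulfates uronic acids of dermatan and chondroitin sulfate, with ZF means 1.29 to 1.84 times the ZL means.

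A further 11 higher members bind or regulate actin. Flna, the cross-linker filamin A, was at 231, 235, 168 and 251 CPM in the ZL rats, 426, 299.9, 309.6 and 299.9 in the ZF rats and 248, 253, 202 and 235 in the ZF-SGLT2i rats, and ZF rat 2 stood far above the other ZF rats. Actn1, the cross-linker alpha-actinin, was at 63.9, 72.4, 61.8 and 63.6 CPM in the ZL rats, 105, 89.8, 95.9 and 83.2 in the ZF rats and 64.5, 63.4, 59.5 and 58.3 in the ZF-SGLT2i rats. Its lowest ZF rat was clearly above the highest of the other rats. The bundling protein Fscn1, the tropomyosin Tpm2, the actin-associated Afap1 and Pdlim1, the myosin-binding Mybpc2, the Rac and Cdc42 exchange factor Arhgef6 and Dpysl3 were also in this group. Mybpc2 had means of 11.4 ± 2.72 (ZL), 20.4 ± 2.91 (ZF) and 13.7 ± 1.62 CPM (ZF-SGLT2i). Dpysl3 had means of 5.02 ± 1.02 (ZL), 8.56 ± 1.41 (ZF) and 5.97 ± 1.16 CPM (ZF-SGLT2i), and in both genes the highest treated rat came close to the lowest ZF rat. So were Lsp1 and Coro1a, actin-binding proteins of leukocytes, with means of 5.72 ± 0.558 (ZL), 8.94 ± 1.01 (ZF) and 5.89 ± 0.96 CPM (ZF-SGLT2i) for Lsp1 and 14.2 ± 2.04 (ZL), 20.9 ± 1.87 (ZF) and 12.2 ± 3.77 CPM (ZF-SGLT2i) for Coro1a.

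Growth factor and developmental signalling gave 11 higher members. Pdgfrb, the PDGF receptor of pericytes and mesangial cells, was at 94.7, 98.8, 76.9 and 110.1 CPM in the ZL rats, 173, 153, 158 and 123 in the ZF rats and 103, 108, 95.7 and 119 in the ZF-SGLT2i rats. The ZF rats spanned a wide range, the lowest only slightly above the highest treated rat. Tgfb2, a TGF-beta ligand, was at 6.28, 5.46, 3.63 and 5.27 CPM in the ZL rats, 11.4, 8.32, 10.9 and 8.09 in the ZF rats and 6.86, 7.27, 6.54 and 6.47 in the ZF-SGLT2i rats, and the treated rats lay between the other 2 groups without overlap. Pmepa1 and Ldlrad4, both known as TGF-beta-induced inhibitors of SMAD signalling, had ZF means 1.34 and 1.29 times the ZL means and 1.31 and 1.46 times the ZF-SGLT2i means.

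Gli3, a transcription factor of the hedgehog pathway, was at 3.32, 4.42, 2.72 and 3.93 CPM in the ZL rats, 9.2, 6.71, 8.80 and 8.09 in the ZF rats and 5.71, 5.86, 5.94 and 6.13 in the ZF-SGLT2i rats. The 3 groups did not overlap at all, with the treated rats in the middle. Sorcs2, a sorting receptor that binds proneurotrophins, was at 87.6, 97.1, 82.0 and 81.1 CPM in the ZL rats, 151, 174, 175 and 137 in the ZF rats and 70.4, 70.1, 69.0 and 64.7 in the ZF-SGLT2i rats, and here the treated rats were the lowest. The remaining signalling members were the Wnt modulator Dkk2, the Notch target Heyl, the transcription cofactor Lbh, the adhesion receptor Bai1 and the endotoxin receptor Tlr4, with means of 6.98 ± 0.826 (ZL), 10.3 ± 1.67 (ZF) and 6.72 ± 0.69 CPM (ZF-SGLT2i) for Tlr4.

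Cell cycle and growth control gave 6 higher members. Ccnd1 (cyclin D1), which drives entry into the cycle, was at 213, 184, 184 and 282 CPM in the ZL rats, 284, 339, 289 and 352 in the ZF rats and 233, 216, 245 and 243 in the ZF-SGLT2i rats. ZL rat 4 came within 1% of the lowest ZF rat. Rrm2, a subunit of the enzyme that makes deoxynucleotides, was at 4.94, 4.59, 5.10 and 4.29 CPM in the ZL rats, 6.90, 7.12, 7.44 and 7.00 in the ZF rats and 6.57, 4.44, 3.12 and 1.89 in the ZF-SGLT2i rats, so the treated rats spread from near the ZF level to well below the lean one. Cpeb1, which regulates the poly(A) tails of mRNAs, was at 4.22, 5.63, 5.56 and 3.48 CPM in the ZL rats, 9.97, 9.22, 9.14 and 11.3 in the ZF rats and 7.24, 7.87, 8.15 and 7.91 in the ZF-SGLT2i rats. Nuak1, an AMPK-related kinase, Pea15, which binds ERK, and Dram1, an autophagy regulator induced by p53, had ZF means 1.32 to 1.47 times the ZL means.

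Metabolism and transport gave 11 higher members in all. Pklr, the pyruvate kinase of liver and red cells that also works in the proximal tubule, was at 75.2, 57.4, 67.0 and 75.2 CPM in the ZL rats, 93.3, 87.4, 96.4 and 85.4 in the ZF rats and 53.2, 55.9, 49.7 and 46.8 in the ZF-SGLT2i rats, the treated rats below the lean ones. Aldh18a1, which makes a precursor of proline, was at 10.2, 13.2, 12.6 and 12.3 CPM in the ZL rats, 17.1, 18.1, 16 and 16.2 in the ZF rats and 13.4, 11.4, 12.9 and 12.6 in the ZF-SGLT2i rats. Aldh1a2 (retinoic acid synthesis), Dgkg (a diacylglycerol kinase), Entpd2 (an ectonucleotidase) and A3galt2 (a glycosphingolipid galactosyltransferase) made up the enzymes. Dgkg was at 132, 145, 139.9 and 91.3 CPM in the ZL rats, 159, 193, 212 and 217 in the ZF rats and 123, 109.8, 125 and 145 in the ZF-SGLT2i rats, with ZL rat 4 the lowest of all. Aldh1a2 had means of 6.47 ± 0.5 (ZL), 9.19 ± 0.537 (ZF) and 6.46 ± 0.944 CPM (ZF-SGLT2i). Among transport proteins, Slc22a6, the organic anion transporter OAT1 of the proximal tubule, was at 722, 707, 726 and 525 CPM in the ZL rats, 759, 838, 910.4 and 845 in the ZF rats and 609, 567, 558 and 499 in the ZF-SGLT2i rats, and ZL rat 4 lay far below the other lean rats. The potassium channel Kcnj5, the calcium channel regulator Rem2, the anion channel subunit Lrrc8c and the pyrophosphate exporter Ankh had ZF means 1.30 to 2.04 times the ZL means. Those of Kcnj5 were 5.51 ± 0.942 (ZL), 11.3 ± 1.98 (ZF) and 7.70 ± 0.895 CPM (ZF-SGLT2i).

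Prima1, the membrane anchor of acetylcholinesterase, had the largest shift among the higher members by the smaller of its 2 folds (2.08). It was at 102, 107, 97.9 and 83.9 CPM in ZL rats 1 to 4, 175, 229, 238 and 169 in ZF rats 2 to 5, and 67.5, 63.5, 74.0 and 117 in ZF-SGLT2i rats 2, 3, 4 and 6. The lowest ZF rat was 1.44-fold above the highest other rat, ZF-SGLT2i rat 6, which itself stood above the other treated rats. The last 5 higher members were Mab21l3, Proc (protein C), Armcx2, Anxa5 (annexin A5) and LOC689986. Mab21l3 was at 48.5, 69.96, 59.6 and 51.3 CPM in the ZL rats, 101, 81.9, 103 and 84.1 in the ZF rats and 63.8, 54.0, 49.7 and 47.9 in the ZF-SGLT2i rats, and its treated and lean rats overlapped.

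**Figure D2:**
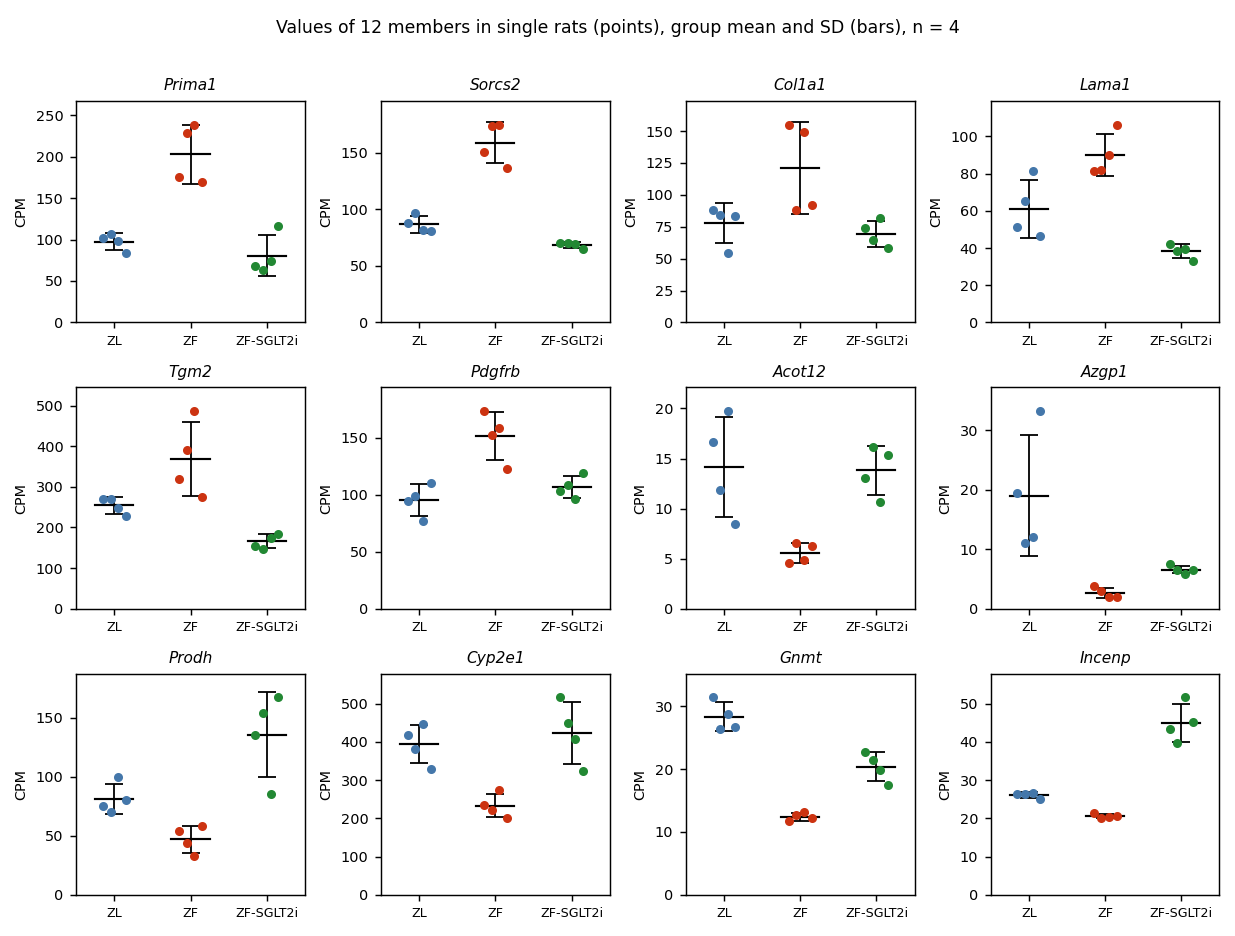
Values of 12 members in CPM (vertical axes, from 0) in the 4 ZL, 4 ZF and 4 ZF-SGLT2i rats. Points are single rats, the long bar is the group mean and the whiskers are ± SD. In Sorcs2, Lama1 and Tgm2 the treated rats lie below the lean rats, in Gnmt and Azgp1 between lean and ZF rats, and in Incenp above the lean rats.

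The lower group was made up mainly of enzymes. Its 4 glutathione S-transferases were Gstz1, which acts in tyrosine breakdown, Gstt3, Gstm7 and the organellar Gstk1. Gstz1 was at 104, 89.3, 95.1 and 114 CPM in the ZL rats, 66.2, 58.7, 67.0 and 57.6 in the ZF rats and 105, 103, 100.4 and 95.1 in the ZF-SGLT2i rats, and the treated rats lay within the range of the lean rats. Gstt3 was at 507, 391, 422 and 468 CPM in the ZL rats, 272, 307, 308 and 241 in the ZF rats and 427, 401, 428 and 367 in the ZF-SGLT2i rats. Gstm7 had means of 10.1 ± 0.543 (ZL), 6.95 ± 0.858 (ZF) and 10.1 ± 0.77 CPM (ZF-SGLT2i). None of the 4 differed past the threshold between ZF-SGLT2i and ZL rats, with log2 fold changes of −0.24 to 0.01.

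Other enzymes of the same superfamily did not meet the rule. For example, the means in ZL, ZF and ZF-SGLT2i rats were 47.1, 29.9 and 28.6 CPM for Gstt1 and 427, 219 and 225 CPM for Gsta2, with the treated rats near the ZF level, and 8.82, 9.07 and 14.1 CPM for Gstm1, with the treated rats highest. These 3 genes were chosen for display after their values were seen. The Gst genes, and likewise Cyp2e1, Acsm3 and Ces2c, have close relatives in the genome, so reads may have been split between copies and their values are uncertain to that degree.

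Amino acid, acylated amino acid and one-carbon metabolism gave 7 lower members. Gnmt, the glycine N-methyltransferase that consumes S-adenosylmethionine, was at 31.4, 26.4, 28.7 and 26.7 CPM in ZL rats 1 to 4, 11.7, 12.7, 13.2 and 12.1 in ZF rats 2 to 5, and 22.8, 21.5, 19.8 and 17.4 in ZF-SGLT2i rats 2, 3, 4 and 6. The 3 groups were fully separate, with the treated rats in the middle. Prodh, which starts the breakdown of proline, was at 74.9, 70.5, 99.7 and 80.4 CPM in the ZL rats, 53.7, 43.9, 32.6 and 58.2 in the ZF rats and 135, 154, 85.1 and 167 in the ZF-SGLT2i rats. Here 3 of the 4 treated rats were above every lean rat. Aldh1l1, which oxidises formyltetrahydrofolate, was at 238, 225, 219.9 and 214 CPM in the ZL rats, 117, 126, 118 and 124 in the ZF rats and 164, 159, 153 and 157 in the ZF-SGLT2i rats, with little spread within a group and no overlap between any of them.

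Acy1 and Acy3, which remove acyl groups from N-acylated amino acids and mercapturic acids, had means of 761 ± 225 (ZL), 396 ± 64.9 (ZF) and 588 ± 76.9 CPM (ZF-SGLT2i) for Acy1 and 420.0 ± 141 (ZL), 150.4 ± 32.5 (ZF) and 227 ± 11.4 CPM (ZF-SGLT2i) for Acy3. Pm20d1, which makes and cleaves N-acyl amino acids, was at 372, 259.6, 305 and 422 CPM in the ZL rats, 256, 199.9, 209 and 187 in the ZF rats and 366, 329, 298 and 281 in the ZF-SGLT2i rats, its lowest lean rat just above the highest ZF rat. Upb1, of pyrimidine and beta-alanine metabolism, had ZL and ZF means of 153 ± 28.8 and 92.4 ± 15.7 CPM. Acy1 and the lower member Abhd14a are direct neighbours on chromosome 8 in the RefSeq gene table, where they do not overlap.

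Fatty acid and acyl-CoA metabolism gave 5 lower members. Acot12, which hydrolyses acetyl-CoA, was at 16.6, 11.9, 19.7 and 8.49 CPM in ZL rats 1 to 4, 4.51, 6.51, 4.87 and 6.23 in ZF rats 2 to 5, and 13.0, 16.2, 10.7 and 15.4 in ZF-SGLT2i rats 2, 3, 4 and 6. The treated rats lay within the wide range of the lean rats, all above the ZF rats. Acsm3, a medium-chain acyl-CoA synthetase, was at 969, 744, 813 and 1178 CPM in the ZL rats, 396, 332, 403 and 361 in the ZF rats and 442, 509, 516 and 469.8 in the ZF-SGLT2i rats, and the treated rats had returned only 20.1% of the way from the ZF to the ZL mean. Echdc3, the fatty acid transporter Slc27a2 and Adhfe1, which oxidises hydroxybutyrate, had ZL means 1.36 to 2.09 times the ZF means. Echdc3 was at 22.2, 17.5, 19.3 and 32.6 CPM in the ZL rats, 13.5, 10.2, 10.9 and 9.18 in the ZF rats and 18.1, 21.5, 19.6 and 16.1 in the ZF-SGLT2i rats, and ZL rat 4 stood above the other lean rats.

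The group of oxidation, hydrolysis and carbonyl reduction held Cyp2e1, Fmo5, Ces2c, Hsd17b1 and Dcxr. Cyp2e1, a cytochrome P450 that oxidises small molecules such as ethanol, acetone and fatty acids, was at 419, 382, 447 and 329 CPM in the ZL rats, 235, 221, 274 and 202 in the ZF rats and 516, 448, 407 and 323 in the ZF-SGLT2i rats. The treated rats spanned the range of the lean rats and went past it on both sides. Hsd17b1, which makes estradiol, was at 13.8, 11.8, 9.07 and 10.0 CPM in the ZL rats, 6.14, 5.81, 5.98 and 5.47 in the ZF rats and 8.09, 8.58, 11.8 and 9.14 in the ZF-SGLT2i rats. The flavin monooxygenase Fmo5 had means of 36.9 ± 6.36 (ZL), 25.5 ± 1.66 (ZF) and 37.0 ± 3.86 CPM (ZF-SGLT2i), and the carboxylesterase Ces2c and the xylulose reductase Dcxr had ZL means 1.34 and 1.33 times the ZF means. Those of Ces2c were 28.1 ± 2.59 (ZL), 21.0 ± 1.36 (ZF) and 29.3 ± 4.07 CPM (ZF-SGLT2i).

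Azgp1, a secreted glycoprotein linked to lipid mobilisation, had the largest ratio of ZL to ZF mean of all members (7.18). It was at 19.5, 11.1, 12.1 and 33.2 CPM in ZL rats 1 to 4, 3.74, 2.91, 1.97 and 1.97 in ZF rats 2 to 5, and 7.43, 6.56, 5.84 and 6.47 in ZF-SGLT2i rats 2, 3, 4 and 6. ZL rats 2 and 3 were well below ZL rat 4, and the treated rats lay between the ZF and the lean rats. Hrg, a histidine-rich plasma protein, had means of 122 ± 24.5 (ZL), 70.2 ± 8.70 (ZF) and 103 ± 21.8 CPM (ZF-SGLT2i). The remaining 10 lower members were of mixed function. They included Prom2 (a membrane protein of cell protrusions), the small heat shock protein Hspb6, the receptor adaptor Grb7, the anion exchanger Slc26a7, the nucleosome-binding Hmgn3 and Incenp (a subunit of the chromosomal passenger complex), with Dmrtc1c1, Ttc39b, Abhd14a and Fam83f. Prom2 was at 47.3, 49.4, 49.3 and 47.2 CPM in the ZL rats, 23.1, 23.7, 20.9 and 24.9 in the ZF rats and 33.9, 37.5, 31.8 and 40.6 in the ZF-SGLT2i rats. Dmrtc1c1 was at 35.7, 32.9, 30.8 and 53.8 CPM in the ZL rats, 14.7, 11.6, 17.7 and 10.2 in the ZF rats and 28.0, 21.1, 22.9 and 23.2 in the ZF-SGLT2i rats. In both genes the 3 groups were separate, with the treated rats in the middle.

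The comparison of ZF-SGLT2i with ZL rats asks how near the treated animals came to the lean ones. The rule keeps both groups on one side of ZF and at least 25% away from it, but does not say which of them is higher. It thereby leaves out genes whose treated rats stayed near ZF, so the share of members called and the return toward the lean level are partly set by the choice of members and are given as a description. Across all 11633 genes tested with limma, 1441 were higher in ZF-SGLT2i rats (12.4%) and 1743 were lower (15%) at an adjusted p under 0.05, and the 4 values of each group did not overlap for 28% of the genes. All 88 members passed the filter on low values, which asked for 1 CPM or more in 4 or more of the 12 rats.

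In the higher group, 10 of 55 members (18.2%) differed between ZF-SGLT2i and ZL rats, beside 27.4% of all genes tested, and nothing is read from the gap between these shares. Of these, 4 were above ZL and 6 below. The median log2 fold change was 0.00, and 27 members had a treated mean above and 28 below the lean mean. The return, that is, the ZF to ZF-SGLT2i distance as a percentage of the ZF to ZL distance, had a median of 101% (40.7% to 234%) and lay between 80% and 120% in 26 members. A return near 0 could not occur under the rule. A member that misses the threshold is not thereby shown to be at the lean level.

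Cpeb1 (log2 fold change 0.64 ± 0.13 (SE), limma adjusted p = 0.00277), Gli3 (log2 fold change 0.60 ± 0.13 (SE), limma adjusted p = 0.00408), Kcnj5 and Ust were above ZL in the treated rats. In Cpeb1, Gli3 and Ust all 4 treated rats were above all 4 lean rats, and less than 50% of the shift had returned. The calls of Kcnj5 (log2 fold change 0.42 ± 0.14 (SE), limma adjusted p = 0.0365) and Ust (log2 fold change 0.44 ± 0.13 (SE), limma adjusted p = 0.0229) were lost when some single rats were left out. Without ZL rat 1, 2 or 3 or ZF-SGLT2i rat 3, 4 or 6, the log2 fold change of Kcnj5 was 0.33 to 0.43 with a limma adjusted p of 0.0563 to 0.115. Without ZL rat 1 or ZF-SGLT2i rat 3 or 6, that of Ust was 0.35 to 0.43 with a limma adjusted p of 0.0544 to 0.0756.

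Lama1, Tgm2, Proc, Pklr, Sorcs2 and Afap1 were below ZL in the treated rats, past the lean level. For Lama1 the log2 fold change was −0.63 ± 0.15 (SE) with a limma adjusted p of 0.006. For Tgm2 it was −0.62 ± 0.14 (SE) with a limma adjusted p of 0.00551. Proc, the anticoagulant protein C, was at 30.8, 30.5, 30.2 and 29.3 CPM in the ZL rats, 35.2, 40.9, 44.9 and 31.7 in the ZF rats and 18.6, 19.4, 19.3 and 20.7 in the ZF-SGLT2i rats, with no overlap (log2 fold change −0.61 ± 0.09 (SE), limma adjusted p = 0.000463). Pklr (log2 fold change −0.41 ± 0.09 (SE), limma adjusted p = 0.00398) and Sorcs2 (log2 fold change −0.34 ± 0.08 (SE), limma adjusted p = 0.00826) also had treated rats entirely below the lean ones. The call of Afap1 (log2 fold change −0.25 ± 0.08 (SE), limma adjusted p = 0.0431) was lost without any of 10 of the 12 rats (all but ZF rat 4 and ZF-SGLT2i rat 2), where its log2 fold change was −0.26 to −0.18 and its limma adjusted p 0.0506 to 0.114.

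In the lower group, 11 of 33 members (33.3%) differed between ZF-SGLT2i and ZL rats, beside the same 27.4% of all genes, with 2 above ZL and 9 below. The median log2 fold change was −0.14 and the median return 71.1% (20.1% to 449%). The treated mean fell short of the lean mean in 23 members and went past it in 10. Less than 50% of the shift had returned in 9 lower members. In the higher group this held for 3, but a member with a small shift could not have a low return, the shifts were larger in the lower group, and the 2 groups were not compared by a test.

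Acsm3 (log2 fold change −0.91 ± 0.12 (SE), limma adjusted p = 0.000182), Aldh1l1 (log2 fold change −0.50 ± 0.05 (SE), limma adjusted p = 2.46e−05), Azgp1 (log2 fold change −1.27 ± 0.27 (SE), limma adjusted p = 0.0037) and Acy3 (log2 fold change −0.82 ± 0.20 (SE), limma adjusted p = 0.00759) were below ZL in all 4 treated rats. So were Gnmt, Prom2, Adhfe1, Dmrtc1c1 and Slc26a7, with log2 fold changes of −0.64 to −0.32. Dmrtc1c1 lost its call without ZF-SGLT2i rat 3 (log2 fold change −0.58, limma adjusted p = 0.0529). Each comparison of 4 against 4 rats without overlap has an exact permutation p of 0.0286, the smallest that 70 assignments can give.

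Incenp and Prodh went past the lean level. Incenp was at 26.3, 26.4, 26.6 and 24.9 CPM in ZL rats 1 to 4, 21.3, 20.1, 20.4 and 20.7 in ZF rats 2 to 5, and 43.3, 39.7, 51.6 and 45.3 in ZF-SGLT2i rats 2, 3, 4 and 6. The treated rats were the highest without overlap (log2 fold change 0.76 ± 0.07 (SE), limma adjusted p = 1.98e−05), so the gene was 1.26-fold lower in ZF than in ZL rats and 2.18-fold lower than in ZF-SGLT2i rats. Prodh was higher in the treated than in the lean rats (log2 fold change 0.70 ± 0.20 (SE), limma adjusted p = 0.0223), but without ZL rat 1 or 2 or ZF-SGLT2i rat 3 or 6 its log2 fold change was 0.58 to 0.66 with a limma adjusted p of 0.0522 to 0.0763.

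**Figure D3:**
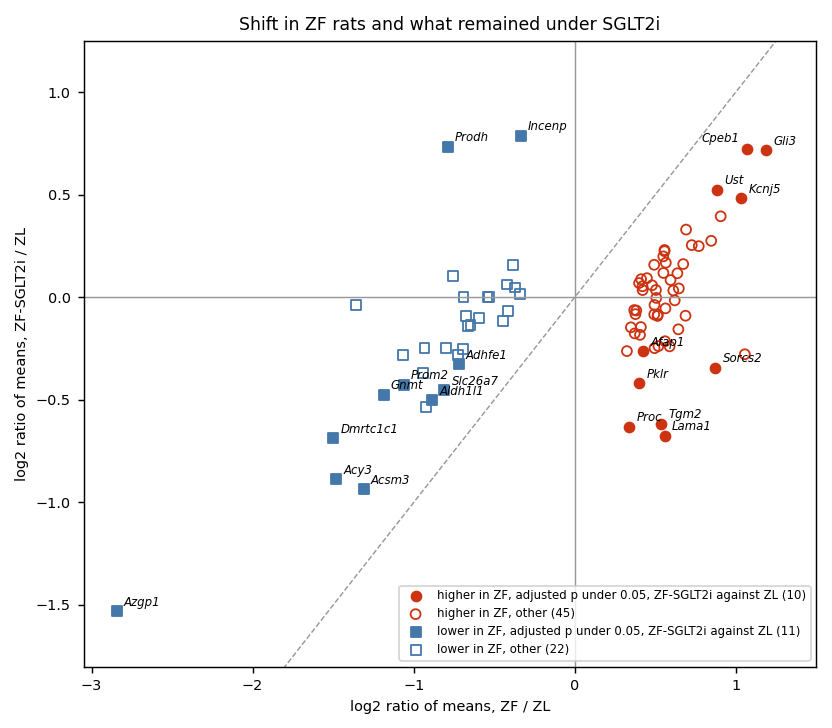
Each member's log2 ratio of the ZF to the ZL mean (horizontal) and of the ZF-SGLT2i to the ZL mean (vertical). Circles are higher and squares lower members, filled where limma gave an adjusted p under 0.05 for ZF-SGLT2i against ZL (10 and 11 genes, named). The horizontal line marks a treated mean equal to the lean mean and the dashed line one equal to the ZF mean. The circles lie on both sides of the horizontal line and 23 of the 33 squares lie below it.

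The plot of the shift against what remained shows the higher members on both sides of the lean level and most lower members short of it. The members called between ZF-SGLT2i and ZL rats were 0 of 4 glutathione S-transferases, 0 of 5 oxidation, hydrolysis and carbonyl reduction enzymes, 2 of 5 fatty acid and acyl-CoA enzymes (both below ZL) and 4 of 7 amino acid and one-carbon enzymes (3 below, 1 above). In groups this small, such counts cannot be set apart from the 27.4% called among all genes. The role groups were formed after the members were known, and no difference between them was tested.

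The sequences before the start of the members were searched for short motifs. RefSeq promoters of the assembly GRCr8, 250 bases before to 50 after the start, were matched for 41 higher and 24 lower members. CCAAT (the CCAAT box, bound by the factor NF-Y among others), searched on both strands, was in 16 of 24 lower (66.7%) and 8 of 41 higher members (19.5%), and in 37.9% of the 8051 matched genes whose mean was 5 or more. These sets differed in base composition, with a median GC content of 58.5% in lower members, 64.3% in higher members and 61.3% in all. The difference was not found at every GC content. In promoters of 55% to 65% GC, the box was in 9 of 12 lower and 1 of 15 higher members and in 41.5% of genes. From 45% to 55% it was in 5 of 6 lower and 3 of 5 higher members (44.2% of genes). At 65% or more it was in 1 of 4 lower and 4 of 20 higher members (30.3%) and below 45% in 1 of 2 lower and 0 of 1 higher members (37.1%). A match is a run of letters and not a bound site.

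The stretches below show the 250 bases before the start for 4 lower members with such a match and 2 higher members, picked after the matches were seen. Gnmt lies at chr9:21752032-21752281 (plus strand), Gstt3 at chr20:12874368-12874617 (plus), Acsm3 at chr1:183564402-183564651 (plus), Cyp2e1 at chr1:205269717-205269966 (plus), Tgfb2 at chr13:100792686-100792935 (minus) and Fscn1 at chr12:16723735-16723984 (minus), all in GRCr8. Each is written from 5′ to 3′ on the gene's strand, and capitals mark a CCAAT box (ATTGG when it lies on the other strand), a TATA box (TATAAA), an E-box (CACGTG) or a cAMP response element (TGACGTCA).
Gnmt: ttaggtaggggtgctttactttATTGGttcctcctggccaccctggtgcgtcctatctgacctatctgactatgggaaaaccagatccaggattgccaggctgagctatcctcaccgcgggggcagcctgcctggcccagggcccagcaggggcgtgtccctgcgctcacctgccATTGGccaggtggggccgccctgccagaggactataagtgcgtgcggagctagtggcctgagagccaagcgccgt
Gstt3: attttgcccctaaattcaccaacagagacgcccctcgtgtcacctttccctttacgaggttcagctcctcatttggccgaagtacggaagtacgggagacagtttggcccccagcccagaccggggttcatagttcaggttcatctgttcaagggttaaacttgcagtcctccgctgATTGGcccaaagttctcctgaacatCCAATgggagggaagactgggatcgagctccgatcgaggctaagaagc
Acsm3: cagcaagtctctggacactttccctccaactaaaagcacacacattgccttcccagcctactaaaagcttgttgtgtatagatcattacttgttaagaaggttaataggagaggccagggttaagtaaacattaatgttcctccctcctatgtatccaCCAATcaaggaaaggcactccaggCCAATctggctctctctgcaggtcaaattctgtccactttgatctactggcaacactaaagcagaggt
Cyp2e1: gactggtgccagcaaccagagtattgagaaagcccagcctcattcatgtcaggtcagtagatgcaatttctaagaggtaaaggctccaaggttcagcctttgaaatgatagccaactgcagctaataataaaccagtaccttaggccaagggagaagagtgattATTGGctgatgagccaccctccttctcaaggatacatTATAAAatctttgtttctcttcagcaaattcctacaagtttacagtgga
Tgfb2: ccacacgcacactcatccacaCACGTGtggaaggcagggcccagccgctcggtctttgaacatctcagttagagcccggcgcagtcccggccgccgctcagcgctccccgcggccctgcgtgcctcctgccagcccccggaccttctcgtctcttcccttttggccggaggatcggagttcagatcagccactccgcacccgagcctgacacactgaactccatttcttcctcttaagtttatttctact
Fscn1: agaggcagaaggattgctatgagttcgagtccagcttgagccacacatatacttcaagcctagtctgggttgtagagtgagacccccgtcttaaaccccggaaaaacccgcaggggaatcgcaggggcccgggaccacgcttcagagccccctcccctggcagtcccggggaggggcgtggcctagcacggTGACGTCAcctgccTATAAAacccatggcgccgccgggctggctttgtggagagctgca

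Gnmt, Gstt3 and Acsm3 have 2 CCAAT matches each in this stretch, and Cyp2e1 has 1 with a TATA box after it. No marked runs overlap. Of the other motifs, both strands searched, TATAAA was in 5 of 41 higher and 2 of 24 lower members (6.46% of genes), and CACGTG in 4 higher and 0 lower (9.90%). TGACGTCA was in 2 higher and 0 lower (3.29%), while TGANTCA (AP-1; 4.71%) and TGATGNAA (amino acid response; 1.81%) were in 1 higher and 0 lower member each and TTATGNAA (D-box; 1.79%) was in none. Counts this small say only that the letters are not in these windows.

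The members were also set beside 29 lists of gene functions, chosen with earlier results of these data known. Members fell into 10 of the lists. On the list of matrix and remodelling genes, 3 of the 27 with a mean of at least 5 were members (Col1a1, Lama1 and Loxl1). The ZF mean was the highest of the 3 groups for 22 of those 27 (81.5%), against 22.2% of all genes. Most fell short of the rule through overlap or fold, such as Col3a1 (99.1, 144 and 68.6 CPM in ZL, ZF and ZF-SGLT2i), Fn1 (96.3, 156 and 106) and Bgn (194, 241 and 182). Of 31 genes of that list tested between ZF-SGLT2i and ZL rats, 4 were higher and 8 lower (12.4% and 15% of all genes tested), among them Col4a1 (log2 fold change −0.47, limma adjusted p = 0.00339).

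On the list of TGF-beta ligands, receptors and SMADs, Tgfb2 was the only member among 21 genes, and the ZF mean was highest for 11 of them. Tgfb1 had means of 16.2, 24.1 and 20.0 CPM and Tgfb3 of 4.75, 6.72 and 4.43 CPM in the 3 groups. Of the G1 cyclins with their kinases and inhibitors, Ccnd1 was the only member among 17. Ccnd2 (10.0, 12.9 and 9.77 CPM) also had its highest mean in ZF rats without meeting the rule. The list of interferon response and antigen presentation genes held no member, although the ZF mean was the highest for 21 of its 24 genes (87.5%). None of the 36 IGF-1, insulin and mTOR pathway genes and none of the clock genes was a member. Clock genes nevertheless differed between ZF-SGLT2i and ZL rats. All 4 tested genes of the activator arm were lower (median log2 fold change −2.22). Of 14 tested repressor and output genes, 12 were higher and 0 lower (median 1.32). The median ratio of the ZF to the ZL mean was 0.226 and 1.87 in these 2 lists.

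On the list of cytochrome P450, conjugation and detoxification enzymes, Cyp2e1, Fmo5 and Ces2c were lower members and Aldh1a2 a higher one among 46 genes. The ZF mean was the lowest of the 3 groups for 24 of them (52.2%), against 29.8% of all genes. Between ZF-SGLT2i and ZL rats, 7 genes of that list were higher and 18 lower of 52 that passed the filter of the test, beside 12.4% higher and 15% lower of all genes tested. Sult1c2 (1290.0, 665 and 437 CPM) and Cyp4a8 (516, 200.04 and 168 CPM) had treated means below the ZF mean. Gnmt and Prodh were the members among 50 genes of amino acid, tryptophan, NAD and polyamine metabolism with a mean of at least 5. Of the 51 genes of that list that passed the filter of the test, 31 were lower in ZF-SGLT2i than in ZL rats and 4 higher, beside the same shares of all genes. Acot12 was the member among 28 genes of fatty acid oxidation and ketone metabolism, where the ZF mean was lowest for 12.

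Single members lay on 4 more lists. These were Pklr among glucose transport and gluconeogenesis genes, Slc26a7 among salt, water and acid-base transport genes, Slc22a6 among organic ion, urate and amino acid transporters, and Acsm3 among genes known to differ between male and female rat kidney. The latter list had 14 of 20 tested genes lower in ZF-SGLT2i than in ZL rats and 0 higher, beside 15% lower and 12.4% higher of all genes tested. Slc26a7 had means of 9.06 ± 0.593 (ZL), 5.17 ± 0.414 (ZF) and 6.63 ± 0.484 CPM (ZF-SGLT2i).

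The summed markers of several cell types had their highest mean in ZF rats, as the higher members did. Of the 4 sums described next, the treated mean was below the lean mean for fibroblast and lymphocyte markers but above it for mesangial and macrophage markers. The podocyte sums had means of 2775, 3481 and 3452 CPM in ZL, ZF and ZF-SGLT2i rats, and the endothelial sums 931, 1101 and 1044 CPM. Both means were highest in ZF rats by little and stayed above the lean mean in treated rats. In both lists the sums of ZF and treated rats overlapped. The ZF mean was the highest for only 5 of 14 podocyte and for 8 of 12 endothelial markers. Of the 13 fibroblast and matrix markers 12 were in the table (not Col4a2), with Col4a1 the most abundant and none at 0 in every rat, and the ZF mean was the highest for 9 of 10 with a mean of at least 5. Their sum was 1312, 1394, 1058 and 1357 CPM in the ZL rats, 1956, 1458, 1943 and 1288 in the ZF rats and 1088, 1027, 995 and 919 in the ZF-SGLT2i rats. ZF rats 2 and 4 were far above the rest, as they were for Col1a1, and the treated rats overlapped only ZL rat 3. Without Col1a1 and Loxl1, the mean sums were 1157 (ZL), 1471 (ZF) and 891 CPM (ZF-SGLT2i).

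The 11 measured markers of mesangial, juxtaglomerular and smooth muscle cells, led by Pdgfrb, summed to 364, 365, 281 and 434 CPM in the ZL rats, 639, 479, 518 and 441 in the ZF rats and 414, 496, 428 and 479.9 in the ZF-SGLT2i rats. ZF rat 2 was the highest and ZL rat 3 the lowest, and without Pdgfrb the mean sums were 266, 368 and 348 CPM. The 6 measured lymphocyte markers, led by Ptprc, summed to 41.4, 42.5, 30.5 and 40.5 CPM in the ZL rats, 54.6, 52.5, 60.3 and 37.6 in the ZF rats and 53.2, 33.7, 27.3 and 35.2 in the ZF-SGLT2i rats. ZF rat 5 lay below 3 of the lean rats. The 12 macrophage markers, led by Cd74, summed to means of 867 ± 79.5 (ZL), 1084 ± 189 (ZF) and 1035 ± 163 CPM (ZF-SGLT2i). The 13 proliferation markers, led by Pcna, summed to means of 109 (ZL), 123 (ZF) and 104 CPM (ZF-SGLT2i). Without Rrm2 these were 104, 116 and 100 CPM. With Rrm2 included, all 4 ZF sums (119.7 to 127.4 CPM) lay above those of the other rats (at most 118.5 CPM). Rrm2, itself a member, gave 6.90 CPM of the sum in ZF rat 2 (119.7 CPM). In ZL rat 2 (118.5 CPM) it gave 4.59 CPM. Without Rrm2 these rats changed order, so the full separation was not kept. The part of cell type composition or proliferation in the values of the higher members was not tested.

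The summed proximal tubule markers were lower in both Zucker fatty groups. The 15 markers, led by Lrp2, summed to 33454, 31942, 33783 and 29952 CPM in the ZL rats, 25952, 27215, 32258 and 25686 in the ZF rats and 27348, 26628, 27085 and 22732 in the ZF-SGLT2i rats. All lean rats were above all rats of the other 2 groups apart from ZF rat 4, and the treated mean was no nearer to the lean mean than the ZF mean was. The 13 measured injured tubule markers, led by Spp1 and without Krt20, summed to means of 916 ± 66.3 (ZL), 1836 ± 692 (ZF) and 1559 ± 345 CPM (ZF-SGLT2i). The 7 measured blood markers, led by Slc4a1, summed to means of 518 (ZL), 436 (ZF) and 609 CPM (ZF-SGLT2i). Those of the inner medulla, led by Fxyd2 and without Krt5, summed to means of 237, 186 and 224 CPM. Both sums were lowest in ZF rats on average, but single ZF and lean rats overlapped. Among markers with a mean of at least 5, the ZF mean was the lowest for only 1 of 2 blood and 1 of 4 inner medulla genes. The sum of the 6 measured of 10 adipocyte markers, led by Lpl, also had its lowest mean in ZF rats (109, 72.0 and 78.1 CPM). Its treated mean was still below the lean mean. Only 3 of these markers had a mean of at least 5, and the ZF mean was the lowest for 2 of them. The part of any of these sums in the values of the lower members was not tested.

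**Figure D4:**
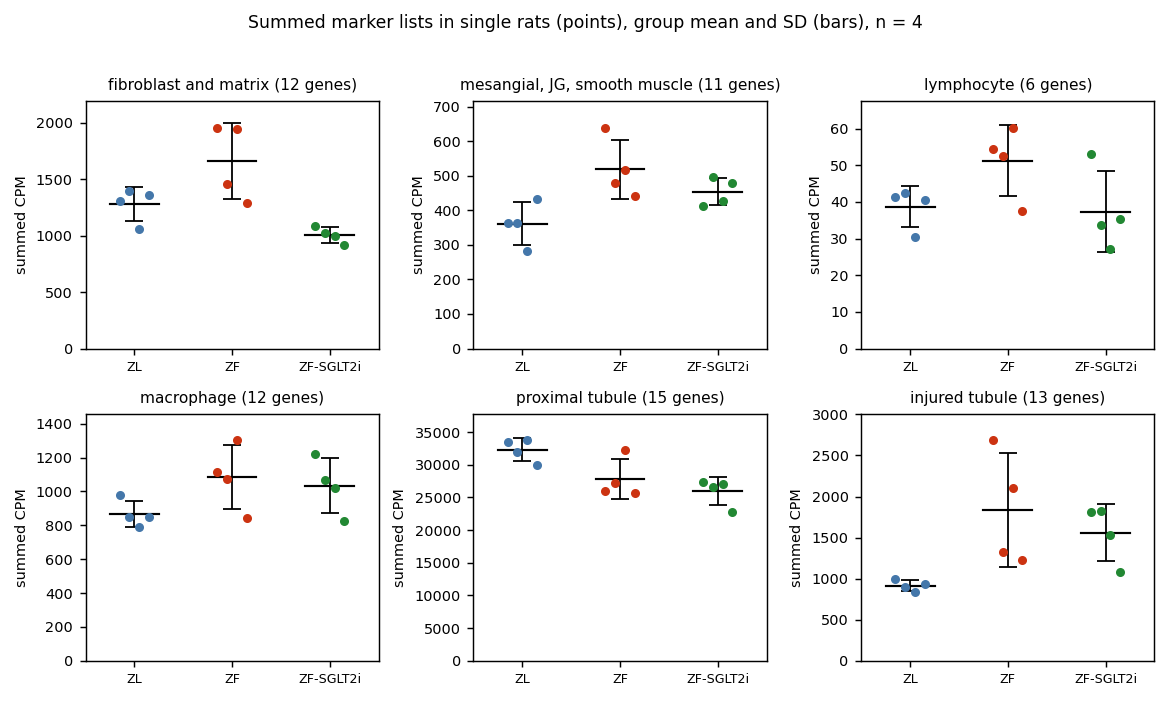
Summed CPM of 6 lists of cell type markers (vertical axes, from 0) in the 4 ZL, 4 ZF and 4 ZF-SGLT2i rats, with single rats as points, the group mean as a long bar and whiskers of ± SD (JG, juxtaglomerular). The fibroblast and matrix sum is highest in ZF rats 2 and 4 and lowest in the treated rats, while the proximal tubule sum is lower in both Zucker fatty groups than in ZL rats on average.

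At the thresholds, members and non-members were close. By the smaller of its 2 folds, Slc22a6 (1.251-fold) and Heyl (1.252-fold) were just inside the fold threshold of the higher group, and Angptl2 (1.247-fold) and Flrt1 (1.244-fold) just outside. In the lower group, Slc27a2 (1.258-fold) and Incenp (1.263-fold) were just inside, and Depdc7 (1.249-fold) and Macrod1 (1.246-fold) just outside. Near the minimum mean, Rrm2 (5.28 CPM) and LOC689986 (5.75) were inside and Timeless (4.45) and S100a4 (4.40) outside the higher group, and Fam83f (5.70) and Slc26a7 (6.95) were inside and Nr0b2 (4.09) and Sphkap (2.58) outside the lower group. Of the 88 members, 87 could be placed in the RefSeq table, on 19 chromosomes with 16 on chromosome 1, and besides Acy1 and Abhd14a the closest pair was Afap1 and Sorcs2 on chromosome 14 with 2 genes between them.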

How the data were processed

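RNA of the renal cortex was sequenced from ribosome-depleted, strand-preserving libraries of 12 rats. The deposited signal values were made by the authors, whose processing notes name Trimmomatic 0.38, RSEM 1.3.0, Bowtie2, edgeR and the genome build rn6; the counting strand and annotation are not given in the sources used here. Dividing each value by a constant per rat gave whole reads (tolerance 0.001), and CPM with TMM factors recomputed from those reads matched the deposited values to a relative gap of 1.02e-15. ZF-SGLT2i was compared with ZL by limma 3.58.1 (R 4.3.3) on log2(CPM + 1), which understates changes of low genes, in a fit of 3 groups with trend, two-sided and Benjamini-Hochberg adjusted over 11633 genes. Single genes had a two-sided exact permutation test. The fits were tested on simulated data.

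The members and the gene lists were chosen with earlier results of these data known, and the role groups after the members had been seen. Every member is named; values for each rat or group means ± SD are given for the 15 of each direction with the largest smaller fold, for members on a list, for those with the largest called differences, and for a few others chosen after their values were seen to show a role group. Alternatives were another pseudocount, filters, scalings, fits, edgeR 4.0.16 and DESeq2 1.42.0 on the recovered reads, and each rat left out. Promoters came from RefSeq (GRCr8), whose coordinates were not converted.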

Additional observations from a re-analysis of the deposited data

Results flagged for a closer look

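In 6 of 264 groups of 4 rats (88 members in 3 groups), the highest or lowest rat lay outside the others by more than Dixon's limit for 4 values, where chance gives about 1 in 20, or 13.2. The rat apart was a lean one in 4 of them. Col1a1 was at 54.3 CPM in ZL rat 3 against 83.1 to 88.5 in the other lean rats, and Dpysl3 at 3.52 CPM in the same rat against 5.37 to 5.74. Slc22a6 was at 525 CPM in ZL rat 4 against 707 to 726, and Afap1 at 13.6 CPM in ZL rat 2 against 12.8 to 13.0. Flna was at 426 CPM in ZF rat 2 against 300 to 310 in the other ZF rats. Lbh was at 49.4 CPM in ZF-SGLT2i rat 3 against 44.5 to 44.9. None of these rats was left out of the values above.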

How the results depend on the processing

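The number of members followed the fold threshold, the scaling and single rats. With a minimum fold of 1.1 the rule gave 104 higher and 94 lower genes, with 1.5 it gave 7 and 11, and on CPM without TMM factors 100 and 18. With each rat left out, the counts ran from 54 (without ZF rat 2) to 137 (without ZF rat 5) and from 34 (without ZL rat 3) to 57 (without ZF rat 4), with 54 lower genes without ZF rat 2. Median-ratio and quantile scaling and a minimum mean of 1 or 10 kept both counts within 1.5 times.

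For ZF-SGLT2i against ZL, edgeR called 10 higher and 11 lower members and 3216 genes in all, and DESeq2 9, 12 and 3282. With each rat left out, the calls were 7 to 12, 9 to 14 and 2238 to 3302. With the rat number as a replicate block they were 5, 6 and 1502, but the deviations of same-numbered rats correlated at −0.376 to 0.253, and the rats share only a number. Of the 21 called members, 10 kept their call under all of up to 22 alternatives, 10 lost it with the block and 5 without some rat, and 0 changed direction. Depth limits the members of low level most, and intervals between 4 animals are wide.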
